A study of Mus musculus with 54 samples.

Results

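The comparison described here set M2-like macrophages transfected with a siRNA pool targeting Stat6 (3 libraries) against M2-like macrophages transfected with a negative siRNA pool (3 libraries), and these 6 libraries were chosen by their labels from the 54 libraries of the series, 36 of which belong to the reprogramming experiment. Both groups were peritoneal macrophages of C57BL/6 mice, elicited with thioglycolate, polarized towards M2-like cells with IL-4 (10 ng/ml, 24 h), transfected with DharmaFECT 4, kept in medium without IL-4 and harvested 48 h after transfection. The groups therefore shared the IL-4 treatment, the transfection reagent and the exposure to siRNA, and differed in the siRNA pool. Other libraries of the same experiment are used as references, namely M2-like and M0 macrophages that received the transfection reagent only (mock), and M2-like macrophages transfected with pools against E2f1, Myc, Pparg or all 4 factors combined. The comparison asks which transcripts of M2-like macrophages depended on Stat6 after IL-4 had been removed. It is not stated whether the 3 replicates came from separate mice or wells, and p-values then measure only the spread between these libraries.

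Stat6 is the transcription factor of IL-4 and IL-13 signalling. Binding of IL-4 to its receptor activates Janus kinases, which phosphorylate the receptor chain and then STAT6. The phosphorylated factor forms dimers, enters the nucleus and binds motifs of the form TTCNNNNGAA, through which genes of alternative activation such as Arg1, Chil3, Retnla and Mrc1 are induced in macrophages.

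The 6 libraries held between 15505223 and 18150125 counted reads (15577108 to 15940005 with the Stat6 pool), and no 2 replicates could be taken for 1 library, since the chi-square statistic divided by the number of genes was 4.48 to 13.7 for the pairs, above the 1 that counting error alone gives. Expression is given in CPM, the counts scaled to the TMM-normalized library size, and a gene was called at an adjusted p-value under 0.05 in edgeR's quasi-likelihood test over 14172 genes. Macrophage transcripts were abundant in both groups. All 24 peritoneal macrophage genes were tested, none was called, and their summed level lay between 23200 and 24800 CPM with the Stat6 pool and between 22600 and 24300 CPM with the negative pool. As 1.04% of all genes were called lower and 0.466% higher, a list of this size may hold no called gene. Transcripts of B cells, T and NK cells and neutrophils were low. Their sums over all list members were 23.1 to 49.3 against 19.6 to 51.4 CPM for B cells, 2.76 to 7.77 against 3.22 to 8.67 CPM for T and NK cells, and 5.74 to 6.65 against 6.64 to 8.76 CPM for neutrophils. Mesothelial and fibroblast markers were more abundant, at 344 to 446 CPM with the Stat6 pool and 280 to 404 CPM with the negative pool. Col1a2 had the highest level among them. In bulk RNA, fewer cells of a type and less RNA per cell cannot be told apart.

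Stat6 itself had the largest decrease among the called genes (ENSMUSG00000002147, GRCm38 chr10:127642986-127660957, plus strand). Its level was 99.2, 75.0 and 66.4 CPM in the 3 Stat6 pool libraries and 286, 298 and 297 CPM in the 3 negative pool libraries. All Stat6 pool libraries lay far below all others, and replicate 1 kept the highest residual level. The mean level fell to 27.3% ± 5.79 (SD, n = 3) of the negative pool, with a log2 fold change of -1.87 (SE 0.10, adjusted p = 3.54e-15, edgeR). Mock treated M2-like macrophages had 288 ± 13.3 CPM of Stat6 (SD, n = 3), and the pools against E2f1, Myc and Pparg gave 275 to 313 CPM over their 9 libraries. With the combined pool, which also contains siRNAs against Stat6, Stat6 was at 158 ± 14.2 CPM (SD, n = 3).

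**Figure D1:**
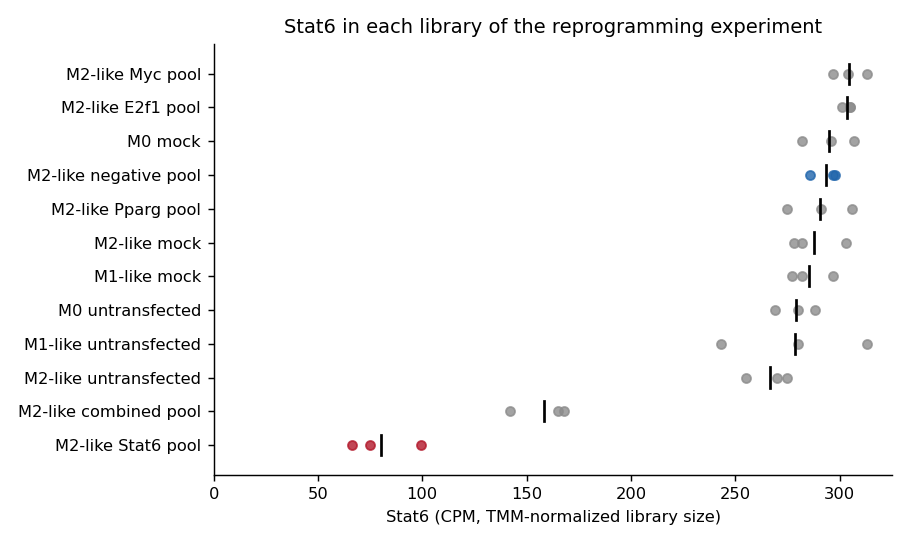
Stat6 in every library of the reprogramming experiment, as CPM on the horizontal axis, with 1 row per condition, 1 point per library and a black bar at the mean of the 3 libraries. The 3 Stat6 pool libraries (red) sit between 66.4 and 99.2 CPM, the combined pool between 142 and 168 CPM, and all other conditions, including the negative pool (blue), above 240 CPM.

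The genes around Stat6 did not pass the test. Nab2, a corepressor of EGR transcription factors, is annotated on the opposite strand and overlaps the 3′ end of Stat6 by 40 bases. It had a log2 fold change of -0.21 (SE 0.10, adjusted p = 0.438), and it is not stated whether reads were counted by strand. Of 12 annotated genes within 100 kb, 6 were tested and none was called, with log2 fold changes between -0.39 and 0.14. Over all genes tested, 1.04% were called lower and 0.466% higher. At these shares few or no calls would fall on 6 genes, so their absence is not a result about the locus. Among the 7 STAT family members Stat6 alone was called. Stat3, the factor of IL-6 and IL-10 signalling, had 202 CPM on average with the Stat6 pool and 226 CPM with the negative pool (log2 fold change -0.16, SE 0.09, adjusted p = 0.464).

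Over the whole transcriptome the response was narrow and small in size. After the Stat6 pool, 148 genes were lower (1.04% of 14172) and 66 genes were higher (0.466%), of which 144 and 65 were protein coding. The median log2 fold change was -0.38 in the lower and 0.43 in the higher genes, and 4 lower genes (Stat6, Traf3ip3, Rab15 and the weakly expressed Gm5113) and 1 higher gene (Nlrp3) reached a log2 fold change of 1 in size. Every called gene was separated completely between the groups, which was also the case for 21% of all genes tested. At an unadjusted p under 0.05, 966 genes were lower and 747 genes were higher (12.1% of all tested). The number of lower genes was 111 without Stat6 pool replicate 1, 63 without replicate 2 and 80 without replicate 3, and 77, 107 and 74 without negative pool replicates 1, 2 and 3, while the number of higher genes was 40, 29 and 34, and 25, 32 and 22, in the same order. DESeq2 called 253 lower and 109 higher genes.

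Among the 12 largest decreases, 8 kept an adjusted p under 0.05 when any single library was left out. Apart from Stat6, these were Rab15, Card14, Ccdc69, Ceacam19, Tspan7, Degs2 and Arid3a. Arid3a, a DNA-binding protein with an AT-rich interaction domain, had 61.4, 58.4 and 65.0 CPM with the Stat6 pool and 92.6, 104 and 100 CPM with the negative pool. Its libraries were tightly grouped and did not overlap, and its log2 fold change of -0.68 (SE 0.09, adjusted p = 3.0e-05) had the lowest adjusted p after that of Stat6. Degs2, which encodes a sphingolipid desaturase and hydroxylase, had 17.8, 14.6 and 18.2 CPM against 24.7, 28.7 and 30.6 CPM (log2 fold change -0.73, SE 0.10, adjusted p = 0.000153). Ceacam19, a cell surface protein of the carcinoembryonic antigen family, had 17.3, 18.5 and 18.9 CPM against 29.3, 32.9 and 31.1 CPM (log2 fold change -0.77, SE 0.13, adjusted p = 0.000923).

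Tspan7, a tetraspanin of the plasma membrane, had 15.9, 13.7 and 14.2 CPM against 26.0, 23.5 and 25 CPM, a log2 fold change of -0.77 (SE 0.12). The 3 remaining genes were weakly expressed. Rab15, a small GTPase of endocytic recycling, had 4.75, 3.91 and 4.68 CPM against 11.1, 8.54 and 8.87 CPM, and Card14, a scaffold protein upstream of NF-kB, had 5.48, 5.87 and 5.86 CPM against 10.1, 12.4 and 10.6 CPM. Ccdc69 had 4.03, 3.26 and 4.55 CPM against 6.86, 7.14 and 7.32 CPM. For all 3 genes the groups did not overlap, with log2 fold changes of -1.10, -0.94 and -0.85.

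The calls of Traf3ip3, B3gnt7, Siglecf and Lat depended on single libraries. Traf3ip3 (log2 fold change -1.15) was not called without Stat6 pool replicate 2 (adjusted p = 0.142) or negative pool replicate 3. B3gnt7, an N-acetylglucosaminyltransferase of glycan chains, had 5.74, 3.46 and 3.45 CPM against 9.63, 7.40 and 7.66 CPM (log2 fold change -0.97), and its call was lost without Stat6 pool replicate 2 (adjusted p = 0.12), Stat6 pool replicate 3 or negative pool replicate 1. Siglecf, a sialic acid-binding lectin that marks eosinophils and some tissue macrophages, had 21.1, 16.4 and 19.6 CPM against 38.7, 35.5 and 33.4 CPM (log2 fold change -0.91, adjusted p = 0.00986). Its call was lost without Stat6 pool replicate 2 (adjusted p = 0.0858) or negative pool replicate 1. Of the 6 eosinophil markers on the list, Siglecf was the only one with enough counts to be tested, Prg2 had no count in any of the 6 libraries, and the list summed to 17.1 to 21.1 CPM with the Stat6 pool and 32.3 to 37.3 CPM with the negative pool. The part of eosinophils in this difference was not tested. Lat, a membrane adaptor known from T cell receptor signalling (log2 fold change -0.70), kept its call only without Stat6 pool replicate 1 and reached an adjusted p of 0.186 without Stat6 pool replicate 2. The 5 tested T and NK cell markers were not called. With 1.04% of all genes called lower and 0.466% higher, few or no calls would fall on 5 genes.

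**Figure D2:**
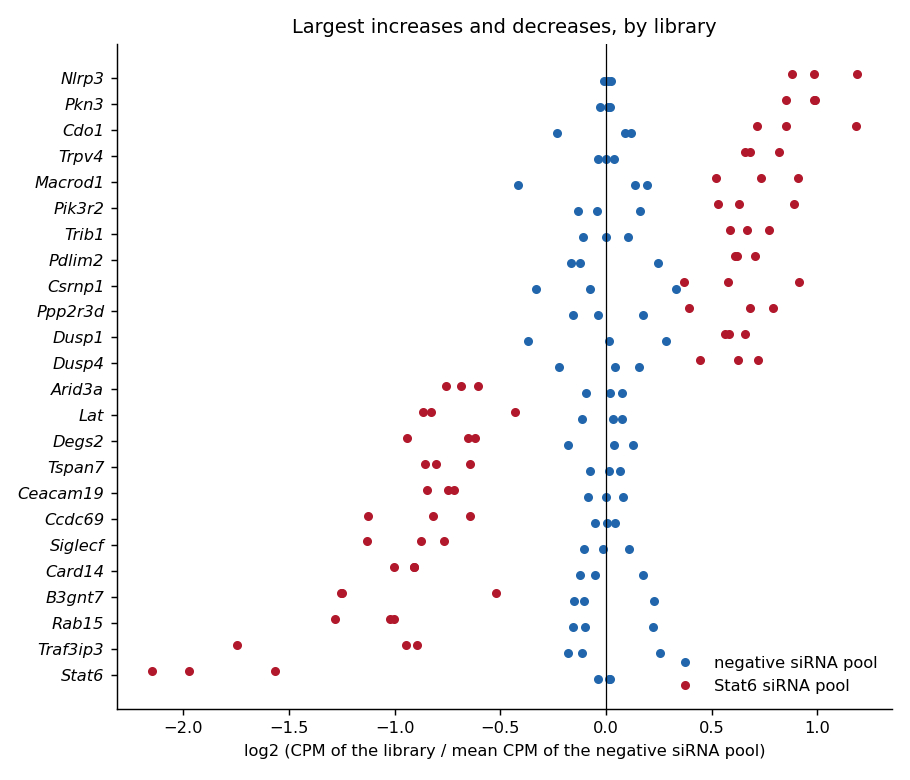
The 12 largest increases and the 12 largest decreases, ordered by log2 fold change, with the log2 ratio of each library to the mean of the negative pool on the horizontal axis, 3 Stat6 pool libraries in red and 3 negative pool libraries in blue. Stat6 and Nlrp3 lie at the ends, and within each of the 24 genes the red and blue points do not overlap.

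Nlrp3, the sensor protein of the NLRP3 inflammasome, had the largest increase among the called genes. It had 26.3, 30.3 and 24.5 CPM with the Stat6 pool and 13.2, 13.5 and 13.4 CPM with the negative pool. The negative pool libraries were nearly identical and all Stat6 pool libraries were well above them, which gave a log2 fold change of 1.02 (SE 0.14, adjusted p = 0.000153), equal to a 2.03-fold higher level, and an adjusted p of at most 0.00318 with any 1 library left out. The mock treated M2-like macrophages had 17.1 ± 2.04 CPM and the mock treated M0 macrophages 35 ± 2.63 CPM (SD, n = 3).

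Of the other 11 increases, 4 kept their call in all of these settings. Trpv4, a calcium-permeable cation channel, had 12, 13.2 and 11.8 CPM against 7.28, 7.67 and 7.49 CPM (log2 fold change 0.73, SE 0.15). Pik3r2, a regulatory subunit of phosphoinositide 3-kinase, had 80.1, 67.0 and 62.5 CPM against 42.1, 48.4 and 39.5 CPM (0.69, SE 0.13). Trib1, a pseudokinase that directs C/EBP proteins to degradation, had 51.4, 58.3 and 54.3 CPM against 36.7, 31.7 and 34.2 CPM (0.67, SE 0.13). Pdlim2, which promotes the degradation of NF-kB and STAT proteins, had 14.9, 15.8 and 14.8 CPM against 8.91, 11.5 and 8.64 CPM (0.65, SE 0.12). These 4 genes had adjusted p-values between 0.00229 and 0.00644.

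The other 7 genes were Pkn3, Cdo1, Macrod1, Csrnp1, Ppp2r3d, Dusp4 and Dusp1, with log2 fold changes between 0.60 and 0.94. Cdo1, which oxidizes cysteine, had 7.06, 7.76 and 9.76 CPM against 4.57, 4.67 and 3.66 CPM, and its adjusted p of 0.0354 rose to 0.214 without negative pool replicate 3. Dusp1 and Dusp4 encode phosphatases that inactivate MAP kinases, and their groups were separated, with 267 to 285 against 140 to 220 CPM for Dusp1 and 65.9 to 79.7 against 41.6 to 54.1 CPM for Dusp4. The call of Dusp4 was lost without any 1 of the 6 libraries (adjusted p up to 0.281, without negative pool replicate 3), and that of Dusp1 without any except negative pool replicate 1 (up to 0.253). For Pkn3 the call was lost without Stat6 pool replicate 2 only, at an adjusted p of 0.052, and for Macrod1 without Stat6 pool replicate 1 or negative pool replicate 2 (up to 0.101). Csrnp1 lost its call without Stat6 pool replicate 2 (adjusted p = 0.194) or negative pool replicates 2 or 3, and Ppp2r3d without Stat6 pool replicates 1 (0.132) or 3 or negative pool replicates 1 or 2.

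Among the genes of alternative activation, Pparg alone passed the test in edgeR. Of 49 listed genes, 41 were tested, 1 was lower and none was higher, with a median log2 fold change of -0.10 (0.00 over all genes tested) and 27 negative and 14 positive values. Over all genes tested, 1.04% were called lower and 0.466% higher. At an unadjusted p under 0.05 there were 10 of 41, against 12.1% of all genes. The number of lower genes on this list was 3 in DESeq2, 4 without the filter on low counts, 5 with only the compared groups in the fit, and 0 without Stat6 pool replicates 1 or 2 or negative pool replicates 2 or 3. For comparison, IL-4 for 24 h in the polarization experiment had raised 37 of the 46 members tested there and lowered 2. Arg1, which converts arginine to ornithine, had 37.0, 42.7 and 18.8 CPM against 34.8, 65.4 and 32.6 CPM, and Retnla, a secreted resistin-like protein, had 136, 297 and 120 CPM against 180, 368 and 139 CPM. In both genes the libraries of a group spread as widely as the groups, and replicate 2 was the highest in each group. Chil3, a chitinase-like lectin, had 815, 1060 and 714 CPM against 1010, 864 and 765 CPM (log2 fold change -0.03, SE 0.16). Mrc1, the mannose receptor, had 303, 267 and 244 CPM against 361, 338 and 361 CPM. The groups of Mrc1 did not overlap, and its log2 fold change of -0.38 (SE 0.14) had an adjusted p of 0.186.

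Pparg encodes a lipid-sensing nuclear receptor that is itself induced by IL-4, and it was 1 of the 4 transcription factors targeted in the study. It had 100, 104 and 102 CPM with the Stat6 pool and 123, 138 and 130 CPM with the negative pool, a log2 fold change of -0.35 (SE 0.08, adjusted p = 0.016). This call was lost without any 1 library except negative pool replicate 1, with an adjusted p of up to 0.101 (without negative pool replicate 2). Mock treated M2-like macrophages had 119 ± 8.28 CPM and mock treated M0 macrophages 90.5 ± 9.28 CPM. Of 26 tested PPARG target and fatty acid oxidation genes none was called (median log2 fold change -0.02). As 1.04% of all genes were called lower and 0.466% higher, a list of this size may hold no called gene. Myc had 19.7, 20 and 19.8 CPM against 19.6, 22.3 and 18.5 CPM, and E2f1 had 24.3, 22.4 and 25.2 CPM against 20.9, 17.3 and 22.0 CPM (adjusted p = 0.974 and 0.281), so that neither of the other 2 target genes was called.

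The transcripts upstream of STAT6 were not called. Of the 22 genes for IL-4 receptor chains, Janus kinases, SOCS proteins, phosphatases and cofactors, Stat6 was the only one called. The shares over all genes tested were 1.04% lower and 0.466% higher, at which few or no calls would fall on a list of this size. The IL-4 receptor gene Il4ra had 61.9, 61.7 and 60.6 CPM against 64.2, 62.2 and 63.5 CPM (log2 fold change -0.04, SE 0.09), and Jak1 had 314, 316 and 308 CPM against 320, 320 and 322 CPM (-0.04, SE 0.05). Il13ra1, a receptor chain shared by IL-4 and IL-13, had 50.6, 48.7 and 58.2 CPM against 63.8, 62.7 and 70.0 CPM. It was separated between the groups and had an adjusted p of 0.19.

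Inflammatory genes were not called either. Among 31 tested cytokines, chemokines and effectors 0 passed the test in edgeR (3 at an unadjusted p under 0.05, with a median log2 fold change of 0.15). Of all genes tested, 1.04% were called lower and 0.466% higher, and 12.1% had an unadjusted p under 0.05. At these shares a list of this size may hold no called gene, so 0 calls are not a result about the list. This applies to all lists in this paragraph. Tnf, the gene of tumour necrosis factor, had 16.6, 16.6 and 21.3 CPM against 15.2, 11.8 and 12.6 CPM (log2 fold change 0.46, SE 0.20, adjusted p = 0.302), and the chemokine Cxcl10 had 7.06, 7.83 and 16.0 CPM against 4.33, 4.47 and 6.01 CPM (adjusted p = 0.357). Both were separated without passing the test, and Cxcl10 was highest in Stat6 pool replicate 3. Nos2, Il6 and Il1b stayed below 1 CPM in all 6 libraries. None of the 71 interferon-stimulated genes (median 0.04), 20 NF-kB target genes (0.13) and 50 replication and mitosis genes (0.10) was called, and at an unadjusted p under 0.05 there were 1, 3 and 5. Of 20 genes of glucose to lactate metabolism, 8 of IMP synthesis and 12 of MHC class II presentation 0 were called (4, 2 and 1 at an unadjusted p under 0.05), and the 5 mast cell, 10 mesothelial and fibroblast and 4 dendritic cell markers tested were not called either (0 at an unadjusted p under 0.05).

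Interferon-stimulated genes were higher with both pools than in mock. Against mock treated M2-like macrophages, 945 genes were higher (6.67% of 14172) and 713 lower (5.03%) with the negative pool, and 869 were higher (6.13%) and 755 lower (5.33%) with the Stat6 pool. All 71 interferon-stimulated genes were higher with the negative pool (median log2 fold change 1.17) and 69 with the Stat6 pool (median 1.19), and both comparisons share the mock libraries. Cholesterol and fatty acid synthesis genes were lower in 24 of 34 with the negative pool and 25 of 34 with the Stat6 pool. Between the pools none of these 34 genes was called (27 negative and 7 positive values, 6 at an unadjusted p under 0.05, smallest adjusted p = 0.058). Between the pools, 1.04% of all genes were called lower and 0.466% higher, and 12.1% had an unadjusted p under 0.05. Hmgcs1, an enzyme of the mevalonate pathway, had 64.2, 63.4 and 80.9 CPM with the Stat6 pool and 89.9, 83.2 and 110 CPM with the negative pool, without overlap.

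**Figure D3:**
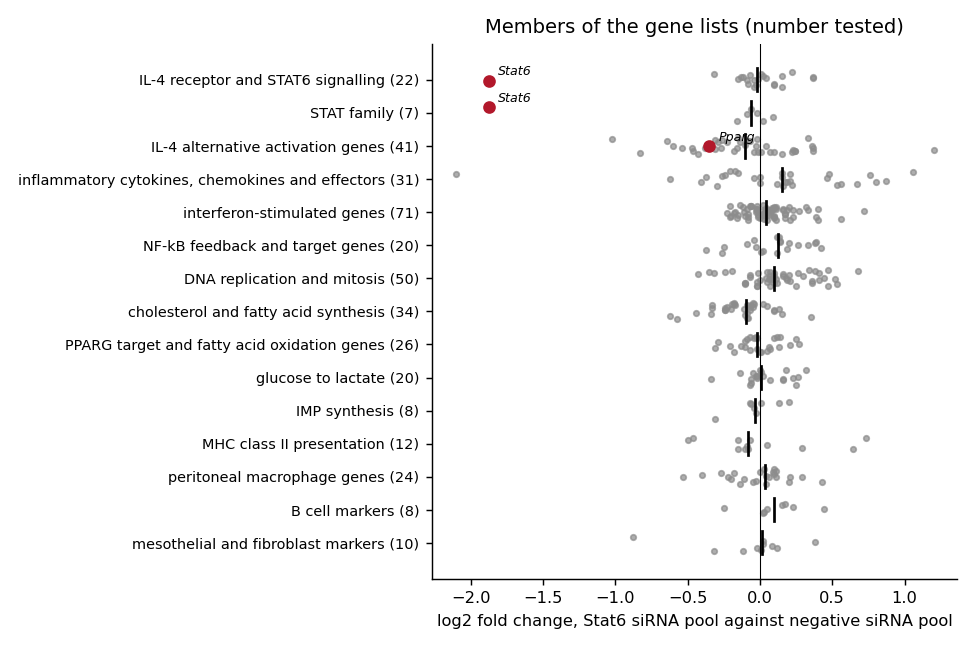
Log2 fold change between the Stat6 and negative pools for each tested member of the gene lists with at least 7 tested members, with 1 point per gene, red points for called genes and a black bar at the median of the list. Stat6, which is on 2 lists, and Pparg are the only red points, and the medians lie between -0.10 and 0.15.

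With mock as the reference in place of the negative pool, 69 of the 148 lower genes and 22 of the 66 higher genes were also called in the same direction, and the other genes were not. Rab15 and Card14 were scarcely expressed in mock treated M2-like macrophages (1.70 ± 0.311 and 2.04 ± 0.297 CPM, SD, n = 3), higher with the negative pool and intermediate with the Stat6 pool. Against mock, both were therefore higher with the Stat6 pool, with log2 fold changes of 1.39 (adjusted p = 0.000417) and 1.49 (adjusted p = 3.23e-05). Ceacam19 and Tspan7 had 16.4 ± 1.67 and 12.2 ± 1.08 CPM in mock, close to their Stat6 pool libraries, and Siglecf had 19.2 ± 0.576 CPM in mock. Arid3a (93.0 ± 7.85 CPM in mock), Degs2 (36.6 ± 4.59 CPM) and Furin (170 ± 22.3 CPM) were lower with the Stat6 pool than in both references. Among the increases, Pik3r2 and Macrod1 were at 83.5 ± 14.6 and 18.2 ± 2.05 CPM in mock, above their Stat6 pool means of 69.8 and 14.4 CPM, whereas Nlrp3, Trib1, Pdlim2, Csrnp1, Dusp1 and Cdo1 were higher with the Stat6 pool than in both.

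The late effect of IL-4 was taken from libraries that are not part of the Stat6 comparison, namely M2-like mock against M0 mock. After 24 h of IL-4 and 48 h without it, 311 genes were higher (2.19% of 14172) and 232 lower (1.64%) than in M0 mock. These are called raised and lowered late, whatever their direction at 24 h. Of the 148 genes lower after the Stat6 pool, 23 (15.5%) were among the raised and 3 (2.03%) among the lowered genes. Of the 66 genes higher after the Stat6 pool, 14 (21.2%) were among the lowered genes and 1 (1.52%), Eif2s1, among the raised. Seen from the IL-4 side, 23 of the 311 raised genes were called lower after the Stat6 pool (7.40%, against 1.04% of all genes) and 14 of the 232 lowered genes were called higher (6.03%, against 0.466%).

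The 23 genes raised late and lower after the Stat6 pool included B3gnt7, Siglecf, Ceacam19, Degs2, Il1rl2, Ggta1, Tifab, Gpt2, Slc35a5, Cnr2, Tsc22d3, Natd1, Tmem206, Thbd, Tfrc, Pparg, Ammecr1l, Ptafr, F10, Znrf2, Sash3 and Nup50. B3gnt7 had 2.99 ± 0.896 CPM in M0 mock, 7.77 ± 2.17 CPM in M2-like mock and 4.22 CPM on average with the Stat6 pool, and Il1rl2, the receptor of IL-36, had 4.61 ± 0.438, 10.6 ± 2.57 and 9.40 CPM. Degs2 had 20.1 ± 0.309 CPM in M0 mock and 36.6 ± 4.59 CPM in M2-like mock, and with 16.8 CPM its mean with the Stat6 pool was below both. The negative pool averaged 8.23 CPM for B3gnt7, 14.2 CPM for Il1rl2 and 28.0 CPM for Degs2. The 14 genes lowered late and higher after the Stat6 pool were Nlrp3, Cdo1, Trpv4, Trib1, Csrnp1, Dusp1, Snx18, Selenow, Arl2bp, Stx11, Spry2, Smim3, Ampd3 and ENSMUSG00000029333. Csrnp1 had 60.3 ± 4.68 CPM in M0 mock, 27.1 ± 4.98 CPM in M2-like mock and 75.1 CPM with the Stat6 pool, Trib1 had 50.9 ± 2.82, 31.7 ± 0.849 and 54.7 CPM, and Trpv4 had 16.2 ± 2.87, 9.14 ± 0.717 and 12.4 CPM. With the negative pool these 3 genes averaged 48.3, 34.2 and 7.48 CPM. Csrnp1 was thus already higher with the negative pool than in M2-like mock (log2 fold change 0.83, adjusted p = 0.000328, edgeR). At 24 h of IL-4, Csrnp1 and Trib1 had the opposite direction, with log2 fold changes of 0.62 (adjusted p = 0.00055) and 0.39 (adjusted p = 0.0349). The genes that were lower in both were Card14, Itgal and Irak2. Genes of these sets outside the largest changes were named after their values had been seen.

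**Figure D4:**
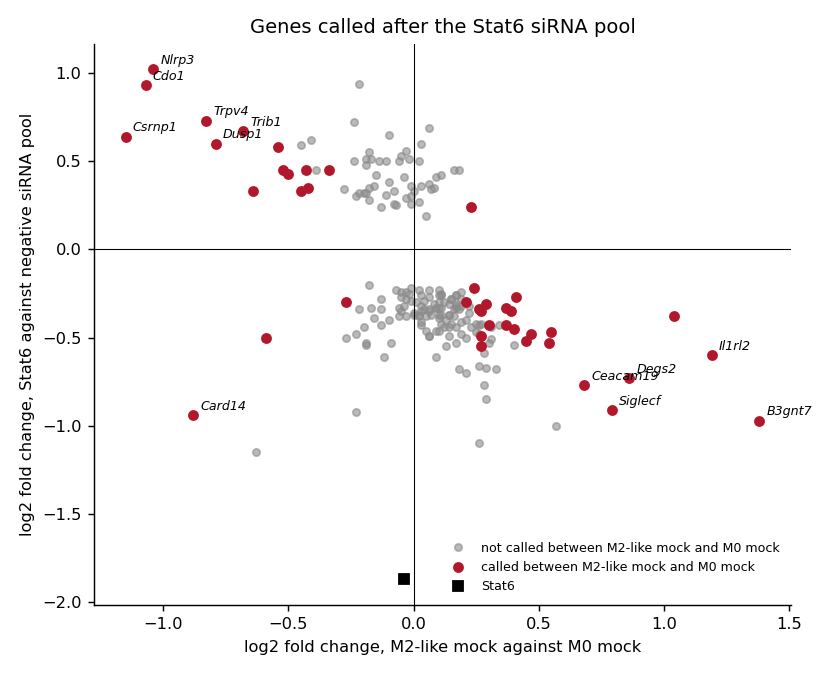
The 214 genes called between the Stat6 and negative pools, with the log2 fold change of M2-like mock against M0 mock on the horizontal axis and that of the Stat6 pool against the negative pool on the vertical axis, and 1 point per gene. Red points, which were also called between the mock groups, lie in the lower right (23 genes) and upper left (14 genes), with 4 elsewhere, and Stat6 (black square) is at -0.04 and -1.87.

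Genes that were not called were included next. Of the 311 genes raised late by IL-4, 261 (83.9%) had a negative log2 fold change after the Stat6 pool, with a median of -0.15, whereas 48.8% of all genes tested were negative. Of the 232 lowered genes, 176 (75.9%) had a positive log2 fold change, with a median of 0.13. The sizes were small, and most of these genes did not pass the test individually.

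The late IL-4 genes were also read with the other pools. The comparisons of the pools with the negative pool share its 3 libraries, and are therefore given side by side. Among the 311 raised genes, negative values were found for 83.9% with the Stat6 pool, 55.3% with the E2f1 pool, 82.0% with the Myc pool, 72.3% with the Pparg pool and 82.3% with the combined pool. The medians were -0.15, -0.03, -0.34, -0.14 and -0.34. The share of the raised genes called lower was 7.40% with the Stat6 pool (1.04% of all genes), 4.18% with the E2f1 pool (0.649%), 55.9% with the Myc pool (15.6%), 21.2% with the Pparg pool (3.03%) and 53.4% with the combined pool (13.9%). Against the mean of the E2f1, Myc and Pparg pools, which does not use the negative pool, the Stat6 pool gave a median of 0.04 for the raised genes, with 39.9% negative, and -0.01 for the lowered genes.

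**Figure D5:**
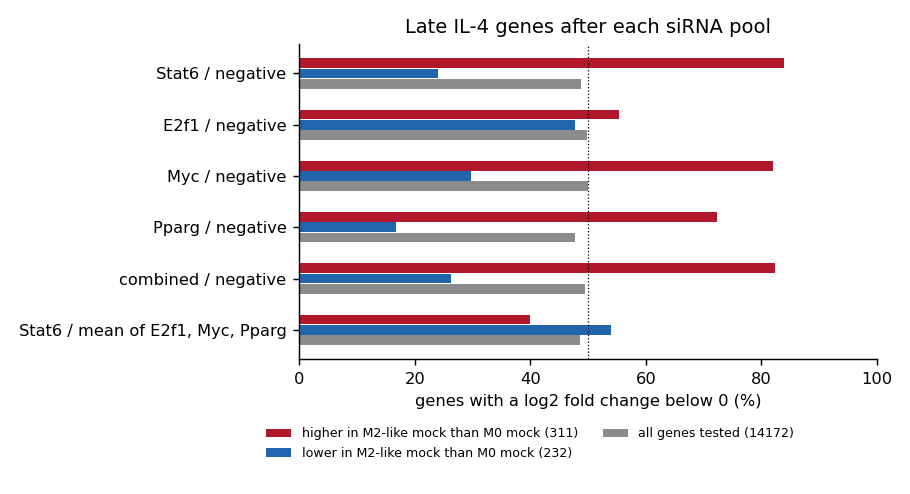
Percentage of genes with a log2 fold change below 0 after each siRNA pool, for genes higher (red, 311) or lower (blue, 232) in M2-like mock than in M0 mock and for all 14172 genes tested (grey), with a dotted line at 50%. The red bars are at 83.9% for the Stat6 pool, 82.0% for Myc and 55.3% for E2f1 against the negative pool, and at 39.9% for the Stat6 pool against the mean of the other 3 single pools.

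The early effect of IL-4 was read from the polarization experiment, in which macrophages of 3 mice were kept with IL-4 or without stimulus for 24 h. IL-4 raised 2176 genes (13.5% of 16110) and lowered 2323 (14.4%). Of the 148 genes lower after the Stat6 pool, 40 (27.0%) had been raised and 31 (20.9%) lowered at 24 h, against 14.5% and 16.6% of the 13648 genes tested in both experiments. Of the 66 higher genes, 23 (34.8%) had been lowered and 11 (16.7%) raised. As a share of the IL-4 genes, 40 of 1976 raised genes (2.02%) were called lower after the Stat6 pool, against 1.08% of the 13648 genes, and 11 (0.557%) were called higher, against 0.484%. Of the 2264 lowered genes, 23 (1.02%) were called higher and 31 (1.37%) were called lower. B3gnt7 (log2 fold change 1.69 at 24 h), Ceacam19 (1.60), Il1rl2 (1.46), F10 (1.30) and Lat (1.24) were raised at 24 h and lower after the Stat6 pool, and Cdo1 (-3.16), Nlrp3 (-1.80) and Pdlim2 (-0.88) were lowered at 24 h and higher after it. Card14 (-2.25) and Traf3ip3 (-1.26) went the other way, since IL-4 had lowered them at 24 h and they were also lower after the Stat6 pool. So did Dusp4 (1.31), Csrnp1 and Trib1, which IL-4 had raised at 24 h and which were higher after the Stat6 pool.

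The called genes were also read in M1-like macrophages of the polarization experiment, which were kept with LPS and IFNγ. Against M2-like macrophages, M1-like macrophages had 5573 higher (34.6% of 16110) and 6130 lower genes (38.1%). Of the 148 genes lower after the Stat6 pool, 70 (47.3%) were lower in M1-like macrophages and 51 (34.5%) higher, against 39.3% and 35.7% of the genes tested in both experiments. Of the 66 higher genes, 27 were higher and 27 lower (40.9% each). Nlrp3 (log2 fold change 6.47) and Csrnp1 (3.71) were among the former, and Macrod1 (-2.79) and Pik3r2 (-0.71) among the latter.

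To see which changes differed from those of the other single pools, the Stat6 pool was compared with the mean of the E2f1, Myc and Pparg pools. In this test 267 genes were lower (1.88% of 14172) and 302 higher (2.13%), with the same 3 Stat6 pool libraries as above. Of the 34 cholesterol and fatty acid synthesis genes, 9 were higher than with the other pools and none was lower, with a median log2 fold change of 0.34. The test includes the effects of the other pools with opposite sign, as for E2f1 (log2 fold change 0.75) and Pparg (0.69), their own targets. Genes that were called in the same direction against both references numbered 55 lower and 8 higher. Among these, Stat6 (-1.90), Card14 (-1.16), Ceacam19 (-0.69), Il1rl2 (-0.66) and Furin (-0.60) had the largest decreases among genes with complete separation from all 9 libraries. The value of Card14 includes its increase with the Myc pool (1.29 against the negative pool, adjusted p = 6.4e-07, edgeR). Against the negative pool, Ceacam19 was called lower with the Myc pool (-0.56) and higher with the Pparg pool (0.40). Furin, a proprotein convertase, had 134, 109 and 97.3 CPM with the Stat6 pool, 163, 166 and 167 CPM with the negative pool and 146 to 203 CPM with the other 3 pools. The Il1rl2 libraries had 9.24, 10 and 8.91 CPM against 12.3, 16.1 and 14.2 CPM with the negative pool and 10.4 to 18.3 CPM with the other 3, and its call against the negative pool was kept only without negative pool replicate 1 (adjusted p up to 0.137).

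Smaller decreases of this kind were found for Bcl2l2, an anti-apoptotic BCL2 protein, for F10, which encodes coagulation factor X, for the centrosomal gene Cdk5rap2, and for Tmem38b and C1d, with log2 fold changes of -0.54 to -0.47 against the other pools and -0.46 to -0.32 against the negative pool. With the Myc pool, all of these except C1d were called higher than with the negative pool (0.33 to 0.40). F10 was also called higher with the Pparg pool (0.27). Bcl2l2 had 27.5, 25.3 and 24.3 CPM against 32.9, 33.8 and 36.4 CPM with the negative pool and 30.9 to 46.1 CPM with the other pools, so that the Stat6 pool was lowest in all libraries. F10 had 128, 138 and 120 CPM against 160, 171 and 153 CPM. In single omissions Bcl2l2 and C1d kept their calls against the negative pool, and F10, Cdk5rap2 and Tmem38b lost them at adjusted p-values of up to 0.111, 0.0845 and 0.11, F10 without Stat6 pool replicates 1 or 3 or negative pool replicates 1 or 2, Cdk5rap2 without Stat6 pool replicates 1 or 3 or negative pool replicate 1, and Tmem38b without Stat6 pool replicates 2 or 3 or negative pool replicates 1 or 3.

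Of the 8 genes higher against both references, Trpv4 (0.56), Pdlim2 (0.40), Arl2bp (0.39) and Rufy3 (0.25) lay above all 9 libraries of the other pools and over the expression limit. These increases were not all particular to the Stat6 pool. Against the negative pool, the Pparg pool also raised Trpv4 (0.63, adjusted p = 0.00816, edgeR), Pdlim2 (0.50, adjusted p = 0.00925) and Arl2bp (0.31, adjusted p = 0.0491). Rufy3 was not called with the Pparg pool (0.13), and Arl2bp was called lower with the Myc pool (-0.28). Trib1 (0.52, adjusted p = 0.00193) overlapped with the Pparg pool, which had 54.9 to 60.7 CPM. Cdo1 had a log2 fold change of 1.51 (adjusted p = 5.07e-06) against the other pools, with 7.06 to 9.76 CPM against 1.86 to 4.08 CPM, but was below the expression limit for named genes over these 12 libraries and was named after its values had been seen. Trpv4 had 5.77 to 11.8 CPM over the other 9 libraries and 11.8 to 13.2 CPM with the Stat6 pool, and Arl2bp, a binding partner of the GTPase ARL2, had 35.7, 36.7 and 36.8 CPM against 19.9 to 35.2 CPM. Nlrp3, in contrast, was at 25.6 to 28.9 CPM with the Myc pool and 29.8 to 34.0 CPM with the Pparg pool, in the range of the Stat6 pool, and at 16.2 to 16.8 CPM with the E2f1 pool (log2 fold change against the mean of the 3 pools 0.16, adjusted p = 0.475). Likewise, B3gnt7 had 1.68 to 3.53 CPM with the other 3 pools and 3.45 to 5.74 CPM with the Stat6 pool, and Tspan7 had 11.3 to 14.9 CPM with the Myc and Pparg pools, near the 13.7 to 15.9 CPM of the Stat6 pool. The Rufy3 call against the negative pool was lost without Stat6 pool replicates 1 or 2 or negative pool replicate 1 (adjusted p up to 0.0863).

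Promoter sequences were available for a part of these genes. RefSeq windows of 300 bases (250 before and 50 after an annotated start, GRCm38.p6) were found by symbol for 112 of the 148 lower genes (75.7%) and 50 of the 66 higher genes (75.8%), which is under 80% in both sets, and a comparison of motif shares between the sets is therefore void. The motif TTCNNNNGAA, bound by STAT6, and TTCNNNGAA, bound by several STAT proteins, read the same on both strands and can overlap each other. They occur in 6.95% and 8.30% of all 32851 windows. Among the 10137 tested genes with a window, 6.66% held the first and 8.25% the second motif, counted separately over all 300 bases. Of the 34 called genes that the naming rule selected, 26 had a window, and at least 4 held either motif in the 250 bases before the start. The 4 is a minimum, because Cdo1 was left out of this search. The sequences of Nlrp3 (chr11:59542436-59542685, plus strand), the largest increase, and of Rab15 (chr12:76813857-76814106, minus strand) and Ceacam19 (chr7:19887966-19888215, minus strand), 2 of the decreases, are shown with the motif in capitals. Rab15 and Ceacam19 kept their calls with any 1 library left out, but their signs were reversed with mock as the reference (log2 fold changes 1.39 and 0.15). A match is a description of the letters and not of binding.
Nlrp3: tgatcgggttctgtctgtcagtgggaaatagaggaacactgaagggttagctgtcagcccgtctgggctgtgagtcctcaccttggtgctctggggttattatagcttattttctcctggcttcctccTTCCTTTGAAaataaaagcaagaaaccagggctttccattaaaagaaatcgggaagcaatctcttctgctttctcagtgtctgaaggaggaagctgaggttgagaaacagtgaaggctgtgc
Rab15: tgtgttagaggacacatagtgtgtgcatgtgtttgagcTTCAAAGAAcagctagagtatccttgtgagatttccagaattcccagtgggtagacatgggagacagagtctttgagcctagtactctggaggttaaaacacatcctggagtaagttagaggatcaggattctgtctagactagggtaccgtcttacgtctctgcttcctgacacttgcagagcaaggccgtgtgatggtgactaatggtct
Ceacam19: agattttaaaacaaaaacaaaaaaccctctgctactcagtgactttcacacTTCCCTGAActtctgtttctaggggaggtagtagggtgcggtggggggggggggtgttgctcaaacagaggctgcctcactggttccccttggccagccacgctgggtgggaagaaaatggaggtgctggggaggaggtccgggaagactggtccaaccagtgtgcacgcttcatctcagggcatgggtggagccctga
The motif of Nlrp3 starts 122 bases before the annotated start and has the longer spacing, and those of Rab15 and Ceacam19 start 212 and 199 bases before it and have the shorter one. The Rab15 window holds a further motif, with the longer spacing, after the start and outside the bases shown. The windows are 1 of 2 annotated for Nlrp3, 1 of 4 for Rab15 and the only 1 for Ceacam19. The window of Stat6 itself holds neither motif.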

How the data were processed

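Total RNA libraries were sequenced as paired 150-base reads in the reprogramming experiment (36 libraries, 12 conditions of 3). Per the study's methods and the submitters' processing notes, the authors trimmed the reads with Trimmomatic, aligned them to GRCm38 with TopHat (TopHat2 in the notes) and counted them per gene with featureCounts, whose versions and strand setting are not given in the sources used here. The values the authors deposited are raw counts per gene, with 0 rows that name no gene.

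Symbols were taken from the GENCODE M21 annotation (37693 of 39179 identifiers matched). Counts were analysed with edgeR 4.0.16 in R 4.3.3: filterByExpr (minimum count 10, minimum total count 15), TMM normalization, 1 model with a term for each of the 12 conditions over 36 libraries, the quasi-likelihood F-test and Benjamini-Hochberg adjustment over 14172 genes, with calls at an adjusted p under 0.05. The polarization experiment (single 50-base reads) was fitted separately after technical replicates had been summed to 9 samples, over 16110 genes. DESeq2 1.42.0 was an alternative, beside other normalization, filters, groups in the fit, a replicate block, mock as the reference and omission of each library. The scripts were tested on simulated data.

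The members and gene lists were chosen with earlier results of these data known. The genes named were the siRNA targets, the STAT family, genes within 100 kb of Stat6, the 12 largest changes in each direction (called, with a symbol, without overlap between the groups and with log2 CPM averaging 2 or more), up to 10 called genes in each direction with the largest differences from the other single pools by the same limits over those libraries, called list members, and Arg1, Chil3, Retnla, Mrc1, Nos2, Il6, Tnf and Il1b. Other genes named were chosen after their values had been seen. Some genes that met these rules are not reported here.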

Additional observations from a re-analysis of the deposited data

How the results depend on the processing

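Stat6 was lower and called under every alternative run, with log2 fold changes between -2.06 and -1.75. The 148 lower and 66 higher genes numbered 253 and 109 in DESeq2, 4 and 1 at a log2 fold change of at least 1 in size, 755 and 869 with mock as the reference, and 63 to 111 and 22 to 40 with 1 library left out. With DESeq2's size-factor normalization, without the filter on low counts, with at least 10 counts in every library and with only the compared groups in the fit, the counts stayed within 1.5 times. The genes behind the counts changed more. Of the 148 lower and 66 higher genes, 108 and 43 were still called without the filter, and 115 and 45 with only the compared groups. The other normalization kept 147 and 66, and the limit of 10 counts kept 144 and 66. Against the mean of the other 3 single pools, the 267 lower and 302 higher genes numbered 12 and 26 at a log2 fold change of at least 1, 116 to 254 and 143 to 302 with 1 library left out, and the higher genes 454 without the filter. The share of lower genes raised by IL-4 at 24 h (27.0%, all genes 14.5%) was 15.5% with the late response (all genes 2.19%) and 6.08% at a log2 fold change of at least 1 (1.68%), and that of higher genes lowered by IL-4 (34.8%, all genes 16.6%) was 21.2% (1.64%) and 4.55% (1.82%). With the replicate number as a block, 259 lower and 121 higher genes were called, and 438 and 539 against the other pools. The labels do not say whether same-numbered libraries share a source. The deviations of same-numbered libraries correlated at r = 0.0723, 0.203 and 0.199 over 10338 genes. Those of libraries with different numbers correlated at -0.202 to 0.00736, so each Stat6 pool library correlated best with its own number. A pairing by number is therefore possible, and the main fit does not use it. With mock as the reference, signs were reversed for Macrod1 (-0.33), Pik3r2 (-0.26), Traf3ip3 (0.49), Rab15 (1.39), Card14 (1.49), Ceacam19 (0.15), Tspan7 (0.25) and Rufy3 (-0.06). The cause of these differences was not tested. Of the 34 called genes named, DESeq2 gave an adjusted p for 28, all of them called. Of the 41 alternative activation genes tested, 3 were lower in DESeq2 and 4 with the block. Changes of genes below a few CPM are limited by depth.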
